A study of Mus musculus with 6 samples.

Results

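Integrins and laminins are the receptors and ligands by which a cell holds on to its surroundings. The genes described here are all integrin alpha, integrin beta and laminin chain genes among those analysed here, taken by their symbols (Itga or Itgb, or Lama, Lamb or Lamc, followed by the number or letter of the chain). Of the 19938 genes with a transcript cluster of their own, 36 met the rule: 18 integrin alpha genes, 8 integrin beta genes and 10 laminin chain genes. Symbols alone decided which genes met the rule, but the genes and lists were chosen with earlier results of these data known.

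Soleus, a postural calf muscle, was profiled on 6 Affymetrix Mouse Gene 1.0 ST arrays in 3 groups of 2. The groups were control mice, mice kept in hindlimb suspension, which takes the weight off the hind legs, and mice kept in hindlimb suspension and given electroacupuncture, a current passed through acupuncture needles. Every sample was described as soleus of a male C57BL/6 mouse aged 8 weeks, with no transgene or deletion named. The labels used here give neither the length of suspension nor the acupuncture point, and nothing in them states that arrays 1 and 2 of any group are from different animals, so p-values measure only the spread between arrays, which may be technical. Values are log2 signals, and 1 log2 unit is a doubling. Differences are given with the standard error (SE) of a limma model of all 6 arrays, and a gene was called where its p, adjusted over all genes, was under 0.05.

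An integrin is a pair of 1 alpha and 1 beta chain that crosses the cell membrane, binds matrix or another cell outside, and links to actin inside through talin, vinculin and their partners. A laminin is a trimer of 1 alpha, 1 beta and 1 gamma chain that forms the sheet of the basement membrane. Around a muscle fibre the main laminin carries the chains of Lama2, Lamb1 and Lamc1, with Lamb2 in place of Lamb1 at the neuromuscular junction, and the integrin of Itga7 and Itgb1 is its receptor beside dystroglycan. Leukocytes carry integrins of their own, in which Itgb2 pairs with Itgal, Itgam, Itgax or Itgad, and Itgb7 pairs with Itgae or Itga4.

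The 95th percentile of 1015 olfactory receptor genes, a mean signal of 3.50, was taken as a stand-in for background. All 6 muscle fibre markers lay above it. So did 13709 of all 19938 genes, so passing that level does not check the labelled tissue. Of the 36 integrin and laminin genes, 34 lay above that level, and Itgax and Itgae lay below it. The array medians over all genes ran from 4.55 to 4.61, and precision is limited by there being only 2 arrays a group. Suspension array 1 carried higher macrophage markers than the other suspension array, and the 2 suspension arrays also differed in fibroblast and tendon markers. The difference between arrays of a group had an SD over all genes of 0.36 in the control, 0.29 in the suspension and 0.25 in the electroacupuncture group.

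None of the 36 genes was called in any of the 3 comparisons. Suspension minus control called 0 of 36 with limma, against 1.05% of all genes, and 5 of 36 had an unadjusted p under 0.05, against 12.7% of all genes. Electroacupuncture with suspension minus suspension called 0 of 36, against 0% of all genes, and 1 of 36 had an unadjusted p under 0.05, against 3.07%. Electroacupuncture with suspension minus control called 0 of 36, against 1.03%, and 4 of 36 had an unadjusted p under 0.05, against 12.8%. The shares of genes with a small unadjusted p were therefore near the background in all 3 comparisons. The first and the third comparison share the control arrays, and the first and the second share the suspension arrays, so their values are not independent. At the median SE of these genes, 0.19, a difference of 1.00 log2 units, or 2.00-fold, would have been needed to pass in suspension minus control. Smaller differences could not pass at that SE.

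The median difference of the 36 genes was 0.02 in suspension minus control, where the median of all genes was 0.01. It was 0.06 in electroacupuncture with suspension minus suspension, where that of all genes was -0.01, and 0.01 in electroacupuncture with suspension minus control, where that of all genes was 0.01. Differences ran from -0.36 to 0.73, from -0.40 to 0.47 and from -0.39 to 1.20 in the same order. In suspension minus control both suspension arrays lay above both control arrays for 9 of the 36 genes, against 21.3% of all genes, and below them for 4, against 18.5%. In electroacupuncture with suspension minus suspension the groups did not overlap for 4 genes that were higher, against 15.4% of all genes, and for 1 that was lower, against 17.1%. In electroacupuncture with suspension minus control they did not overlap for 11 that were higher, against 21.8%, and 5 that were lower, against 20.0%.

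**Figure D1:**
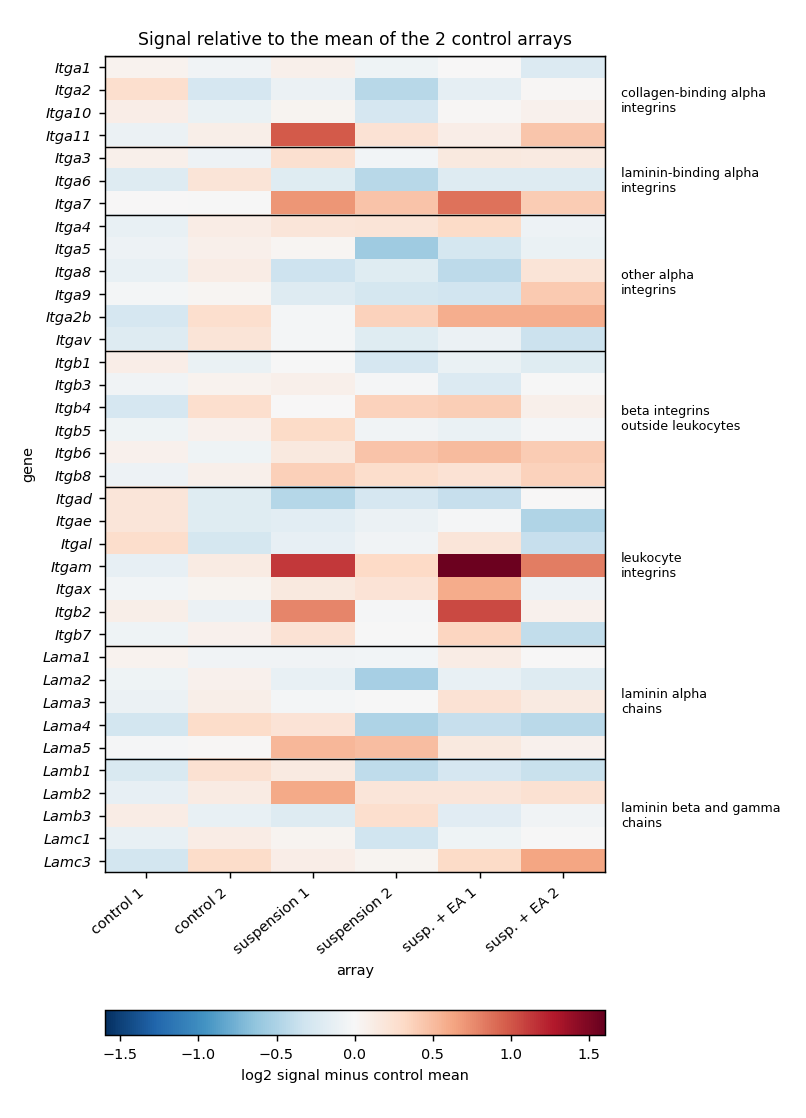
Log2 signal of the 36 integrin and laminin genes on each of the 6 arrays, minus the mean of the 2 control arrays, in colour (red above, blue below), with genes grouped by role. Itgam is reddest on array 1 of both suspended groups, and Itga7 and Lamb2 are above both control arrays on all 4 suspended arrays.

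**Figure D2:**
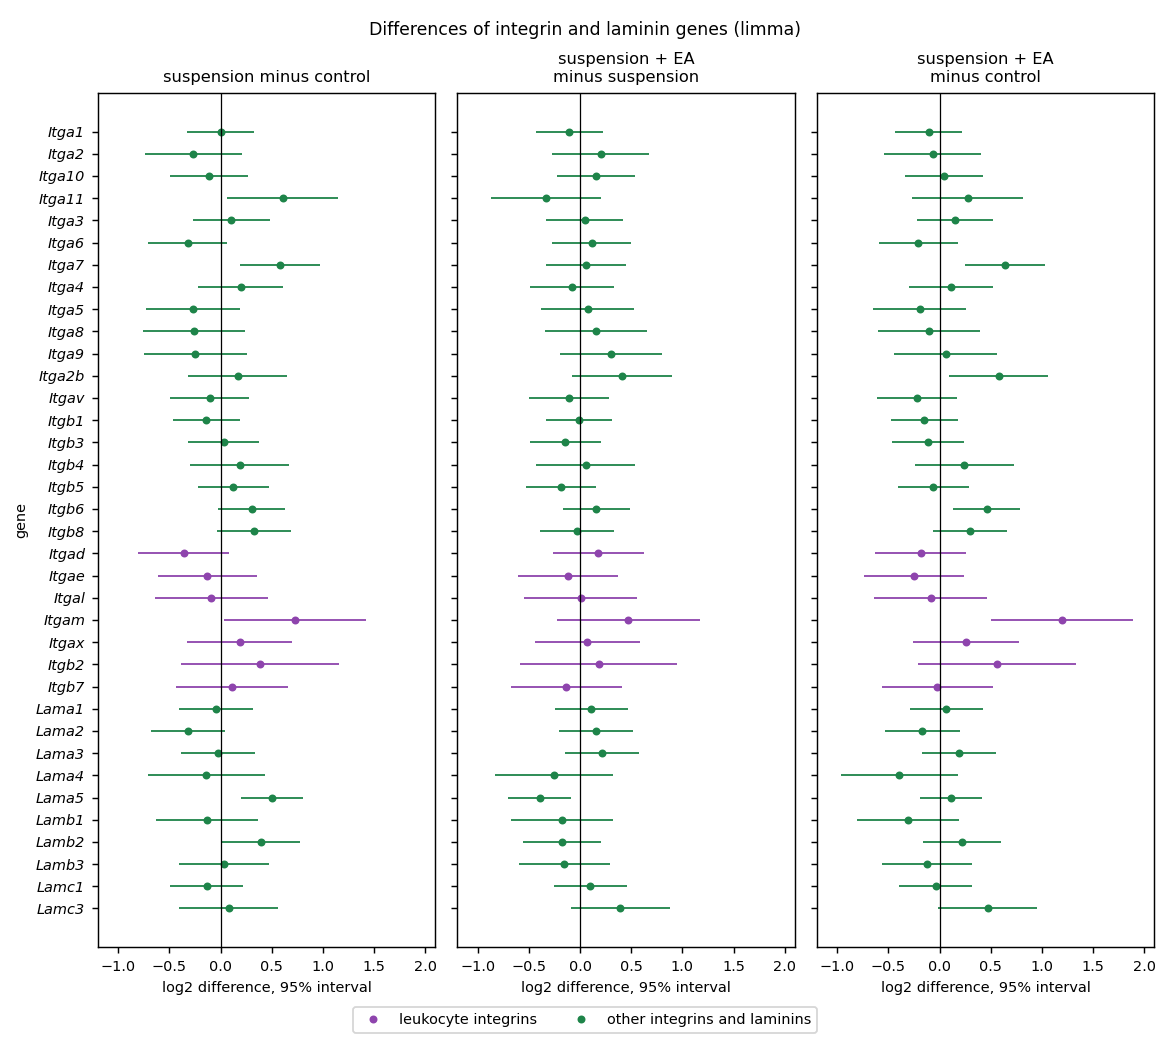
Log2 difference of each gene in the 3 comparisons, with its 95% confidence interval from limma, unadjusted for the number of genes, for the 7 leukocyte integrins (purple) and the other genes (green). Itgam, whose control signal was at the background level, differs by 0.73 in suspension minus control and by 1.20 in electroacupuncture with suspension minus control, and none of the genes passed after adjustment.

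Among the ligands, the laminin chains did not move together. Lama5, the alpha chain of several laminins of vessel walls and other basement membranes, had the smallest adjusted p of all 36 genes in suspension minus control. Its signal was 5.45 and 5.50 on the control arrays, 6.00 and 5.97 on the suspension arrays, and 5.63 and 5.54 on the arrays of suspension with electroacupuncture. The 3 groups did not overlap: suspension was highest, electroacupuncture lay between and control was lowest. The difference of suspension from control was 0.51 ± 0.13 (SE, n = 2 against 2; 95% interval 0.20 to 0.81), a 1.42-fold higher signal with an adjusted p of 0.134. Without any 1 array this difference stayed between 0.48 and 0.53. Electroacupuncture with suspension minus suspension gave -0.40 ± 0.13 (95% interval -0.70 to -0.09), which did not pass at an adjusted p of 1.00, and the treated group minus control gave 0.11 ± 0.13. Both differences use the same 2 suspension arrays, which lay close to each other.

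The promoter of Lama5 is shown because this gene had the smallest adjusted p of suspension minus control and the only laminin signal that separated all 3 groups. It is a RefSeq promoter window of 300 bases in assembly GRCm38.p6 that spans the listed start of the gene, at chr2:180225810-180226109 on the minus strand. Capitals mark the GC box GGGCGG, searched on both strands, which had 4 matches here and at least 1 match in 35.7% of all 32851 promoters of that length. The motif is the core letters bound by factors of the Sp family, and a match is a description of the letters only.
Lama5: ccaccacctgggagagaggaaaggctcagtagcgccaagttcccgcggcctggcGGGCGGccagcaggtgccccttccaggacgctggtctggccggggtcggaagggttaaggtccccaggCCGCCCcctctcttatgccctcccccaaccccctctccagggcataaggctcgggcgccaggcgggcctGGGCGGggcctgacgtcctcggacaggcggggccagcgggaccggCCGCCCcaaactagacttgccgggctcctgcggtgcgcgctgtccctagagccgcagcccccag

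Lama2, the alpha chain of the muscle fibre's main laminin, had signals of 7.49 and 7.64 on the control arrays, 7.45 and 7.04 on the suspension arrays and 7.44 and 7.35 on the electroacupuncture arrays. All 4 suspended arrays lay below both control arrays, by little in suspension array 1. The difference was -0.32 ± 0.16 (SE, n = 2 against 2) for suspension minus control, at an adjusted p of 0.464, and it came to -0.11 without suspension array 2. Treated minus suspended gave 0.15 ± 0.16, and treated minus control gave -0.17 ± 0.16.

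Lamb2 encodes the beta chain that marks laminin of the neuromuscular junction. It read 7.46 and 7.71 in control, 8.19 and 7.77 in suspension, and 7.78 and 7.83 in suspension with electroacupuncture. All 4 suspended arrays lay above both control arrays, suspension array 2 by the smallest margin. The difference of suspension from control was 0.40 ± 0.17 (SE, 95% interval 0.02 to 0.78) with an adjusted p of 0.368, and it was 0.19 without suspension array 1. Treated minus control was 0.22 ± 0.17 and treated minus suspended -0.18 ± 0.17.

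Lamb1 encodes the beta chain of the muscle fibre's main laminin. It read 5.62 and 6.11 in control, 6.01 and 5.46 in suspension, and 5.60 and 5.51 in suspension with electroacupuncture. Control and suspension overlapped, with a difference of -0.13 ± 0.22, and the treated arrays lay just below the lower control array, with a difference of -0.31 ± 0.22 at an adjusted p of 0.646. Lamc1, the gamma chain shared by most laminins, read 7.49 and 7.72, then 7.65 and 7.29, then 7.54 and 7.60 in the same order of groups. Its 3 groups overlapped, and its differences were -0.14 ± 0.16 for suspension minus control, 0.10 ± 0.16 for treated minus suspended and -0.04 ± 0.16 for treated minus control.

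Lama4, the alpha chain of vessel-wall laminin, read 6.23 and 6.82 in control, 6.74 and 6.03 in suspension, and 6.16 and 6.10 in suspension with electroacupuncture. Both untreated groups were wide, and the treated arrays lay just below the lower control array. Its differences were -0.14 ± 0.25 for suspension minus control and -0.39 ± 0.25 for treated minus control, at adjusted p of 0.883 and 0.601. Endothelial markers were also lower on average on the treated arrays: the mean of 7 such markers was -0.27 and -0.34 relative to the control mean there, their median was -0.20 and -0.21, and all 7 were above the background level. Kdr, a receptor for vascular growth factor, differed by -1.28 in treated minus control (adjusted p 0.014), a call lost without either treated array (adjusted p 0.071 and 0.143). It weighed most in that mean, and Vwf went the other way, by 0.38, while Esam differed by -0.06. On the control arrays the mean of these markers was -0.10 and 0.10, and on the suspension arrays 0.07 and -0.07. Their part in the Lama4 values was not tested, and in whole muscle fewer cells of a type cannot be told apart from less RNA per cell.

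Lamc3, a gamma chain of less common laminins, read 4.13 and 4.70 in control, 4.53 and 4.46 in suspension, and 4.73 and 5.05 in suspension with electroacupuncture. The treated arrays lay above all others, the first of them by only a small margin over control array 2. The difference of treated from control was 0.47 ± 0.21 (SE), at an adjusted p of 0.406, and that of treated from suspended was 0.39 ± 0.21. The remaining laminin chains, Lama1, Lama3 and Lamb3, are known mainly from embryonic or epithelial basement membranes. Their differences in the 3 comparisons ran from -0.15 to 0.21.

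The receptors of laminin include the alpha chains of Itga3, Itga6 and Itga7. Itga7, the laminin receptor chain of muscle fibres, had signals of 6.75 and 6.74 on the control arrays, 7.45 and 7.21 on the suspension arrays and 7.62 and 7.16 on the arrays of suspension with electroacupuncture. All 4 suspended arrays lay above both control arrays, and the suspension and electroacupuncture groups overlapped. The difference was 0.58 ± 0.17 (SE, n = 2 against 2; 95% interval 0.19 to 0.97), or 1.49-fold, for suspension minus control, at an adjusted p of 0.182. It stayed between 0.46 and 0.70 without any 1 array. Treated minus control was 0.64 ± 0.17 (95% interval 0.25 to 1.03) at an adjusted p of 0.150, and treated minus suspended 0.06 ± 0.17. The interval of that last difference, -0.33 to 0.45, allows a change in either direction.

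Itgb1, the partner of Itga7 and of most other alpha chains in muscle, gave no such gap. Its signals were 8.24 and 8.04 in control, 8.13 and 7.86 in suspension, and 8.03 and 7.95 in suspension with electroacupuncture. Control and suspension overlapped, and both treated arrays lay just below the lower control array. The difference of suspension from control was -0.14 ± 0.14 (SE, 95% interval -0.47 to 0.19) and that of treated from control was -0.15 ± 0.14. Treated minus suspended was -0.01 ± 0.14, a value whose sign turned with a second quantile normalization or cyclic loess. Of the other laminin-binding alpha chains, Itga6, found on vessels, nerve sheaths and epithelia, read 6.66 and 7.08 in control, 6.68 and 6.42 in suspension, and 6.66 on both treated arrays. Its groups overlapped, and its difference of suspension from control was -0.32 ± 0.17. Itga3 differed from control by 0.11 in suspension and by 0.15 in the treated group.

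**Figure D3:**
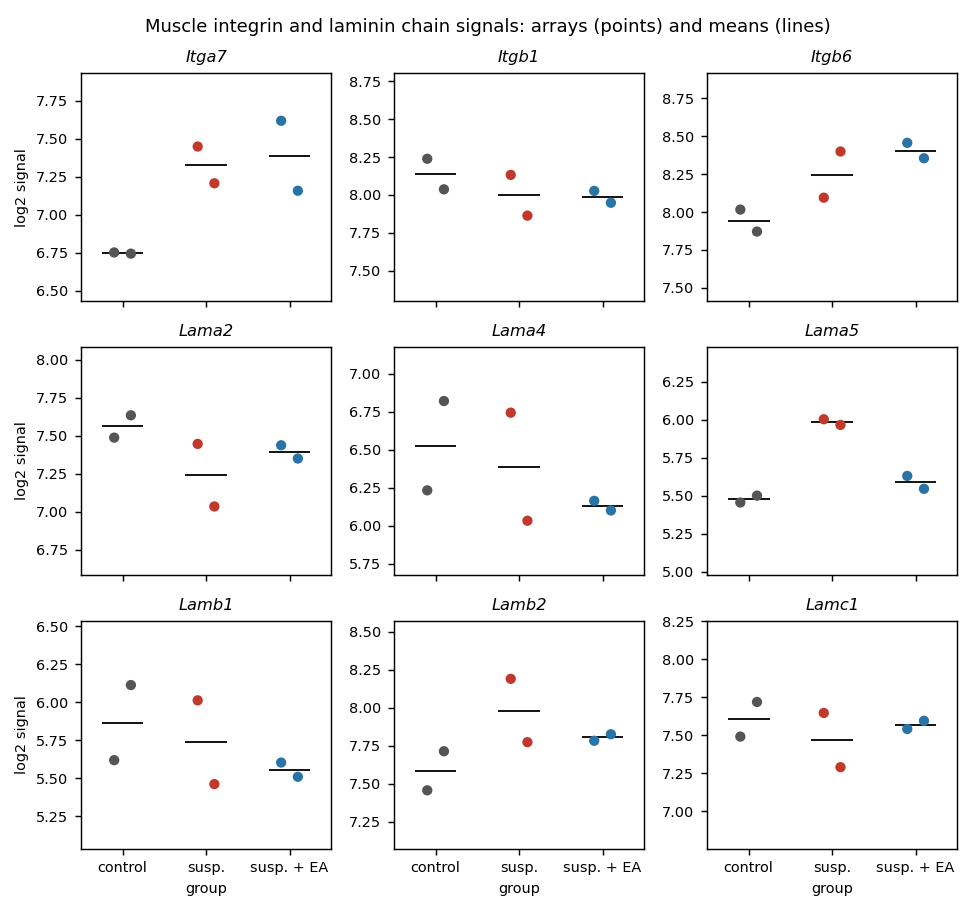
Log2 signals of 9 muscle integrin and laminin chain genes on each array (points, left to right arrays 1 and 2) with the group means (lines), each panel with an axis of the same length. Itga7 and Lamb2 lie above control on all 4 suspended arrays, Lama5 separates the 3 groups, and the control and suspension arrays of Lama4 and Lamb1 overlap.

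The collagen-binding alpha chains are those of Itga1, Itga2, Itga10 and Itga11, all of which pair with Itgb1. Itga11, known from fibroblasts, read 5.22 and 5.41 in control, 6.30 and 5.55 in suspension, and 5.43 and 5.76 in suspension with electroacupuncture. All 4 suspended arrays were above both control arrays, but the lower treated array exceeded the higher control array only narrowly, and suspension array 1 stood well above the others. The difference of suspension from control was 0.61 ± 0.24 (SE, 95% interval 0.07 to 1.15) at an adjusted p of 0.332, and it fell to 0.23 without suspension array 1. Treated minus control was 0.28 ± 0.24 and treated minus suspended -0.33 ± 0.24. The fibroblast and tendon markers, all 8 above background, averaged -0.01 and -0.92 relative to the control mean on suspension arrays 1 and 2, -0.07 and 0.07 on the control arrays, and -0.51 and -0.47 on the treated arrays. The list holds genes that went different ways: on suspension array 1 its median was 0.31 and 5 of 8 were above their control mean, with Lum, a fibroblast proteoglycan, at 7.84 against 5.92 and 6.93 in control. Tnmd, a tendon gene, read 5.92 and 6.10 in suspension against 7.90 and 8.00 in control, and fell by 1.94 in suspension minus control (adjusted p 0.0031). The part of these cells in the Itga11 values was not tested. The other collagen receptors differed by -0.27 to 0.20 over the 3 comparisons.

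The alpha chains that bind fibronectin and related ligands are those of Itga4, Itga5, Itga8, Itga9, Itgav and, on platelets, Itga2b. Itga2b read 3.91 and 4.45 in control, 4.16 and 4.54 in suspension, and 4.76 and 4.76 in suspension with electroacupuncture. The treated arrays lay above all others, while control and suspension overlapped. The difference of treated from control was 0.58 ± 0.21 (SE, 95% interval 0.09 to 1.06) at an adjusted p of 0.292, and that of treated from suspended was 0.41 ± 0.21. Another 3 markers of platelets and megakaryocytes averaged -0.12 and 0.12 on the control, -0.34 and -0.32 on the suspension and -0.06 and -0.12 on the treated arrays, and they went different ways. Pf4, a platelet chemokine, differed by 0.51 in treated minus control without overlap and by 0.40 in treated minus suspended. Its group differences were near those of Itga2b, but its arrays did not follow the same order. In both control and suspension, Pf4 was higher on array 1 and Itga2b on array 2. Gp9 and Ppbp differed by -0.37 and -0.42 in treated minus control. None of the 3 was called, and their part in the Itga2b values was not tested.

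Itga4, which pairs with Itgb1 or Itgb7 and is found on leukocytes and muscle precursors, read 4.21 and 4.45 in control, 4.52 and 4.53 in suspension, and 4.64 and 4.25 in suspension with electroacupuncture. Suspension lay above control by a small margin, with a difference of 0.20 ± 0.18, and the treated arrays spanned both groups. Itga5, the main fibronectin receptor chain, read 6.02 and 6.17 in control, 6.13 and 5.52 in suspension, and 5.81 and 5.99 in suspension with electroacupuncture, so that control and suspension overlapped. It differed from control by -0.27 ± 0.20 in suspension and by -0.19 ± 0.20 in the treated group. Itga8 and Itga9, receptors of nephronectin and tenascin among other ligands, lay below both control arrays in suspension, by -0.26 ± 0.22 and -0.25 ± 0.22 as a mean, and the treated arrays spanned the control values for both. Itgav, which pairs with several beta chains, had overlapping groups in each comparison and differences between -0.22 and -0.11.

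Of the beta chains outside leukocytes, Itgb6 and Itgb8, partners of Itgav that bind latent TGF-beta, were above control on all 4 suspended arrays. Itgb6 read 8.02 and 7.87 in control, 8.09 and 8.40 in suspension, and 8.46 and 8.35 in suspension with electroacupuncture. Its difference was 0.30 ± 0.14 (SE) for suspension minus control, at an adjusted p of 0.440, and 0.46 ± 0.14 (95% interval 0.13 to 0.79) for treated minus control, at 0.215. Itgb8 read 3.85 and 4.02 in control, 4.31 and 4.21 in suspension, and 4.16 and 4.30 in suspension with electroacupuncture, with differences of 0.33 ± 0.16 and 0.30 ± 0.16 from control. Treated minus suspended was 0.16 ± 0.14 for Itgb6 and -0.03 ± 0.16 for Itgb8. Itgb3, the partner of Itga2b and Itgav, Itgb4, the partner of Itga6 in epithelia and nerve sheaths, and Itgb5 had overlapping groups in every comparison, with differences of -0.19 to 0.24.

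The 7 leukocyte integrin genes had a median difference of 0.11 in suspension minus control, 0.07 in treated minus suspended and -0.02 in treated minus control, and none was called. Itgam encodes CD11b, the alpha chain of complement receptor 3 on macrophages, monocytes and neutrophils. Its signal was 3.38 and 3.63 on the control arrays, 4.64 and 3.82 on the suspension arrays, and 5.08 and 4.32 on the arrays of suspension with electroacupuncture. All 4 suspended arrays lay above both control arrays, and array 1 was the higher in both suspended groups. The difference of treated from control was 1.20 ± 0.31 (SE, n = 2 against 2; 95% interval 0.50 to 1.90), at an adjusted p of 0.131. The control mean of Itgam, 3.50, was at the background level of 3.50. Its mean over all arrays thus clearly passed that level only through the suspended arrays, and no fold is given for it. Its differences set the upper ends of the ranges over the 36 genes in all 3 comparisons, and those ends carry this limit. Suspension minus control was 0.73 ± 0.31 (95% interval 0.03 to 1.43) at an adjusted p of 0.372, and 0.32 without suspension array 1. Treated minus suspended was 0.47 ± 0.31, with an interval from -0.23 to 1.17. Another 3 clusters that the annotation assigns to both Rpl35 and Itgam were left out, and they differed by 0.27 to 0.31 in suspension minus control.

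Itgb2, the CD18 beta chain that Itgam needs to reach the surface, read 4.12 and 3.92 in control, 4.81 and 4.003 in suspension, and 5.08 and 4.09 in suspension with electroacupuncture. Array 1 stood above array 2 in both suspended groups, by 0.80 and 0.99, and array 2 of each lay between the control values, so the groups overlapped. The difference was 0.38 ± 0.34 (SE) for suspension minus control, -0.02 without suspension array 1, and 0.56 ± 0.34 for treated minus control, at an adjusted p of 0.571. Leaving out array 1 of the treated group brought the latter to 0.07.

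The other partners of Itgb2 did not share the order of Itgam. Itgax, which encodes CD11c of dendritic cells and some macrophages, read 2.97 and 3.07 in control, 3.17 and 3.24 in suspension, and 3.62 and 2.93 in suspension with electroacupuncture, below the background level as a mean. Its difference from control was 0.19 ± 0.23 in suspension and 0.26 ± 0.23 in the treated group, where the 2 arrays lay on either side of the control values. Itgal, which encodes CD11a of lymphocytes and other leukocytes, read 3.85 and 3.29 in control, 3.45 and 3.52 in suspension, and 3.77 and 3.20 in suspension with electroacupuncture, so that only the lower treated array lay outside the range of the control arrays. Itgad had 2 clusters that disagreed: the brighter differed by -0.36 in suspension minus control and the dimmer by 0.21.

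Itgb7, the beta chain of gut-homing lymphocytes, read 4.10 and 4.25 in control, 4.41 and 4.17 in suspension, and 4.52 and 3.78 in suspension with electroacupuncture, so that all 3 groups overlapped. Its difference was 0.11 ± 0.24 for suspension minus control and -0.02 ± 0.24 for treated minus control. Its partner Itgae, an alpha chain of lymphocytes in epithelia, had groups that overlapped in every comparison, with differences of -0.25 to -0.12, and its mean lay below the background level.

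Promoters of Itgam and Itgax are shown because these genes encode alternative partners of Itgb2, lie near each other on chromosome 7 and differed in their signals. Both are RefSeq promoter windows of 300 bases in GRCm38.p6 on the plus strand that span the listed start of the gene, at chr7:128062390-128062689 for Itgam and chr7:128129300-128129599 for Itgax. Capitals mark GAGGAA, a core bound by PU.1, a transcription factor of myeloid cells, searched on both strands. It matched 3 times in the Itgam window and 0 times in the Itgax window, and 28.3% of all promoters of that length hold it. Of 26 promoters of the integrin and laminin genes, 14 hold this core. They include those of Itgb1, Itgb6, Lama2, Lama5, Lamb1 and Lamb2, which are not leukocyte integrins. A match describes the letters only, and no match says only that these letters are not in the window. Itgax lay below the background level as a mean, and the control mean of Itgam was at that level. A part of PU.1 in these signals was not tested.
Itgam: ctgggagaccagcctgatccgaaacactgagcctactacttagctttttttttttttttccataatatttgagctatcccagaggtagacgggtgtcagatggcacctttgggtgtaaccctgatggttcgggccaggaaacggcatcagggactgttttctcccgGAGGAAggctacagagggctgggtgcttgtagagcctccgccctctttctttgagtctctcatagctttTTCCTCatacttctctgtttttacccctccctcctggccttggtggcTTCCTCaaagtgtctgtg
Itgax: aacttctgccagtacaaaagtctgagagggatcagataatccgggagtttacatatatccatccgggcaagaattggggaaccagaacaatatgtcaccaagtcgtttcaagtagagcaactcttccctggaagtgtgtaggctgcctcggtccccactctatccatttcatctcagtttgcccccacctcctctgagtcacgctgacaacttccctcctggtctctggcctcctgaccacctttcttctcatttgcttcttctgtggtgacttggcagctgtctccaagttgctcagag

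Macrophage markers were also highest on array 1 of both suspended groups. The mean of 11 such markers, which do not include an integrin, relative to its control mean was -0.15 and 0.15 on the control arrays, 0.49 and -0.16 on the suspension arrays, and 0.67 and 0.36 on the treated arrays. Their summed signal, as log2, was 8.998 and 9.45 in control, 10.004 and 9.16 in suspension, and 10.33 and 9.81 in suspension with electroacupuncture. All 11 lay above the background level, 11 of 11 were above their control mean on array 1 of both suspended groups, and none was called in the 3 comparisons. Both treated arrays lay above both control arrays for 8 of the 11, against 21.8% of all genes, and below them for 0, against 20.0%. In that comparison 3 of 11 had an unadjusted limma p under 0.05, against 12.8%. Control and suspension overlapped for all 11. The order of the arrays was not the same for the markers and for Itgam, since suspension array 2 was near control array 1 for the marker mean but above both control arrays for Itgam. For neutrophils 1 of 4 markers and for lymphocytes 1 of 5 lay above background, and the mean of either list stayed between -0.09 and 0.09 relative to its control mean on every array. The part of macrophage RNA in the Itgam and Itgb2 values was not tested.

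**Figure D4:**
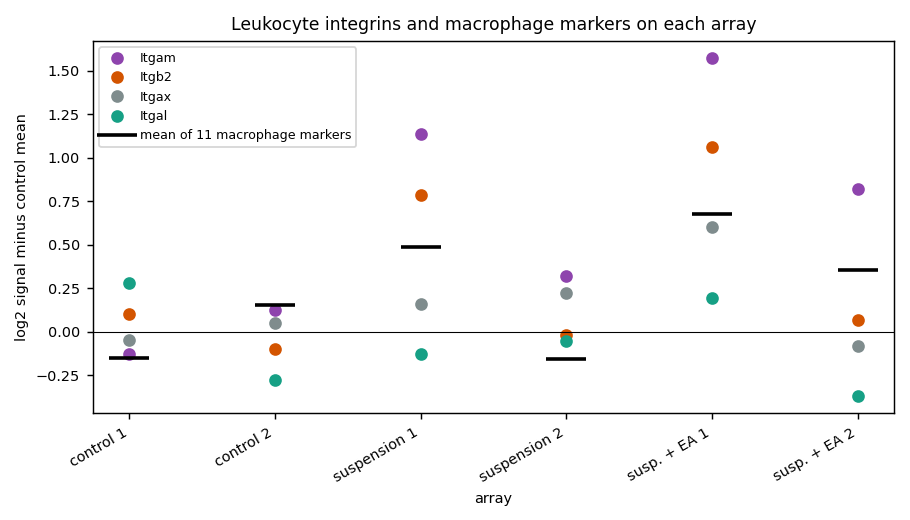
Log2 signal of Itgam, Itgb2, Itgax and Itgal on each array (points) and the mean of 11 macrophage markers (black lines), each minus its control mean. Itgam, Itgb2 and the marker mean are higher on array 1 than on array 2 in both suspended groups, and Itgam is above the control arrays on all 4 suspended arrays.

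Inside the cell, integrins are tied to actin by an adhesion complex, for which 28 of 30 listed genes were measured. In suspension minus control 1 of the 28 rose and 1 fell, against 1.05% of all genes called, and 8 of 28 had an unadjusted p under 0.05, against 12.7%. The median difference was -0.06. Sorbs3, which encodes vinexin, a partner of vinculin, read 6.35 and 6.57 in control, 7.48 and 7.33 in suspension, and 6.94 and 7.06 in suspension with electroacupuncture. It rose by 0.94 log2 units in suspension minus control, at an adjusted p of 0.023, and the 3 groups did not overlap. The call was lost without either suspension array (adjusted p 0.137 and 0.091), without either treated array (0.071 each), with only the compared groups (0.071), with no mean-variance trend (0.052) and with the replicate number as a block (0.052). Flnc, which encodes the muscle filamin that crosslinks actin at the membrane and Z-disc, read 10.52 and 10.66 in control, 9.92 and 9.81 in suspension, and 9.76 and 9.95 in suspension with electroacupuncture. It fell by 0.73 in suspension minus control, at an adjusted p of 0.045, and by 0.74 in treated minus control, at 0.043, where it was the only 1 of the 28 called, against 1.03% of all genes, and 11 of 28 had an unadjusted p under 0.05, against 12.8%. Both Flnc calls were lost without any 1 array other than control array 1, at adjusted p of 0.060 to 0.412, and with the block (0.089 and 0.085), no mean-variance trend (0.103 and 0.095) or only the compared groups (0.117 and 0.099). That of suspension minus control was also lost with arrays centred on their medians (0.053). In treated minus suspended 0 of 28 were called by limma, with 1 at an unadjusted p under 0.05, against 3.07% of all genes. Among those not called, Tln2, the talin of mature muscle, differed by 0.64 in suspension minus control (adjusted p 0.091) and Tns1 by 0.54 (adjusted p 0.154). Ilk, the integrin-linked kinase, differed by -0.43 there (adjusted p 0.180), and Parvb, its partner parvin, by -0.52.

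Of the basement membrane and matrix partners of laminin 17 of 20 listed genes were measured, and limma called 0 in every comparison, with 2, 0 and 4 of 17 at an unadjusted p under 0.05, against 12.7%, 3.07% and 12.8% of all genes. In treated minus control both treated arrays lay below both control arrays for 11 of 17, against 20.0% of all genes. They lay above both for 3, against 21.8%. In suspension minus control 4 were higher and 3 lower without overlap, against 21.3% and 18.5%. In treated minus suspended 0 of the 17 genes were higher and 3 lower, against 15.4% and 17.1%. Their median difference was -0.02 in suspension minus control, -0.11 in treated minus suspended and -0.23 in treated minus control. Col15a1, a collagen of the outer basement membrane of muscle and vessels, differed by -0.56 in suspension minus control (adjusted p 0.118) and by -0.55 in treated minus control (adjusted p 0.131). Fn1, which encodes fibronectin, differed widely between the suspension arrays. It read 9.39 and 9.74 in control, 10.85 and 7.92 in suspension, and 9.21 and 8.63 in suspension with electroacupuncture.

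The arrays of each group were also compared with each other over the integrin and laminin genes. Suspension array 1 was the higher of its pair for 24 of the 36 genes, control array 2 for 23 and treated array 1 for 22. The share over all genes was not counted, and this count did not set the suspension pair apart. The median distance between the suspension arrays was 0.26 for the 36 genes, against 0.16 for all genes. In control the distance was 0.20 against 0.21, and in suspension with electroacupuncture 0.17 against 0.14. The widest suspension pairs among the 36 genes were Itgam at 0.81, Itgb2 at 0.80, Itga11 at 0.75 and Lama4 at 0.71. Lama5, by contrast, differed by 0.04 between the suspension arrays.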

How the data were processed

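Total RNA of soleus was extracted with Trizol, labelled with biotin and hybridized to the arrays, per the labels. The deposited table gives log2 signals for 35556 transcript clusters, which the authors computed by RMA in Affymetrix Expression Console, per the submitters' processing notes, and their versions and the genome build are not given in the sources used here. RMA equalizes the distribution of signals across arrays, so a shift common to most genes would be lost. Of the clusters, 21789 had 1 gene symbol, 1621 several and 12146 none, and for genes with several clusters the brightest on average was kept. All 36 integrin and laminin genes matched RefSeq by Entrez ID. Groups were compared with limma 3.58.1 in R 4.3.3 (lmFit and eBayes with a mean-variance trend, 3 residual and 5.88 prior degrees of freedom) over 19938 genes, with p adjusted by Benjamini and Hochberg. The script was tested on simulated data. Values are printed by array for a fixed set of genes central to muscle or leukocytes and for the 5 smallest p of each comparison. Called genes of the adhesion complex are also printed by array. Up to 4 other genes of each partner list are given by their differences. Itga5, Itga6, Itgb8, Fn1, Lum, Tnmd, Pf4, Gp9, Ppbp, Kdr, Vwf and Esam were added after their values were seen. The genes and lists were chosen with earlier results of these data known. RefSeq promoters were found for 23 of the 36 genes. Alternatives covered normalization, filters, cluster choice, variance priors, a replicate block and each array left out.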

Additional observations from a re-analysis of the deposited data

How the results depend on the processing

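Limma called 0 of the 36 genes in each comparison under all 14 other settings. The smallest adjusted p among them was 0.078, for Lama5 in suspension minus control with only genes at or above the median signal. Over all genes the calls of suspension minus control went from 209 to between 16 (without suspension array 1) and 301 (without control array 2), and those of treated minus control from 206 to between 2 (without treated array 2) and 312 (quantile normalization again). The labels do not say whether the replicate numbers pair the arrays. Over all 19938 genes the correlation of the array differences was -0.16, 0.02 and -0.02 between groups. A value over all genes cannot decide whether some genes follow the replicate number. With the replicate block 0 of the 36 genes were called, and over all genes 102 in suspension minus control and 127 in treated minus control. The median of the 36 genes in suspension minus control was -0.11 over the 22 genes at or above the median signal. In treated minus suspended that median ran from -0.068 to 0.092 without 1 array, the lowest without suspension array 2. Treated minus suspended of Itgal turned to -0.0035 with centred arrays, -0.019 with quantile normalization again and -0.0072 with cyclic loess, and that of Itgb1 to 0.014 and 0.010 with the latter pair. The signs of the following differences turned without some array, and the cause was not tested. In suspension minus control the ranges were -0.10 to 0.44 for Itga2b, -0.37 to 0.19 for Itgal, -0.017 to 0.79 for Itgb2, -0.0089 to 0.23 for Itgb7, -0.49 to 0.22 for Lama4, -0.40 to 0.15 for Lamb1, -0.32 to 0.042 for Lamc1 and -0.21 to 0.37 for Lamc3. In treated minus suspended they were -0.71 to 0.041 for Itga11, -0.28 to 0.11 for Itga4, -0.17 to 0.29 for Itga7, -0.28 to 0.29 for Itgal, -0.27 to 0.41 for Itgax, -0.14 to 0.12 for Itgb1, -0.32 to 0.68 for Itgb2, -0.51 to 0.24 for Itgb7, -0.053 to 0.36 for Lama2, -0.61 to 0.10 for Lama4, -0.46 to 0.095 for Lamb1, -0.39 to 0.031 for Lamb2 and -0.079 to 0.28 for Lamc1. In treated minus control they were -0.084 to 0.31 for Itga4, -0.37 to 0.20 for Itgal, -0.083 to 0.60 for Itgax, -0.39 to 0.35 for Itgb7 and -0.15 to 0.077 for Lamc1. A group left with 1 array was assumed to vary like the others. The alternatives for Sorbs3, Flnc, Kdr and Tnmd were added after seeing the data.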

Other observations

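Some chains that are partners, or alternatives to each other, differed unequally over the arrays. These pairs were chosen after their values were seen and carry no test. The change of Lamb2 from its control mean minus that of Lama2 was -0.06 and 0.06 on the control arrays, 0.72 and 0.71 on the suspension arrays, and 0.32 and 0.45 on the arrays of suspension with electroacupuncture. Against Lamc1, the change of Lamb2 was higher by 0.56 and 0.50 on the suspension arrays and by 0.26 and 0.25 on the treated arrays, with -0.01 and 0.01 in control. Against Lamb1, it was higher by 0.46 and 0.59 on the suspension arrays and by 0.46 and 0.60 on the treated arrays, with 0.12 and -0.12 in control. The suspension arrays were not close in every such pair: the change of Lama5 minus that of Lama4 was 0.31 and 0.98 there, with 0.27 and -0.27 in control and 0.52 and 0.49 on the treated arrays. The change of Itga7 minus that of its partner Itgb1 was -0.10 and 0.10 on the control arrays, 0.71 and 0.73 on the suspension arrays, and 0.98 and 0.60 on the treated arrays. Against Itga6, it was 0.89 and 0.91 on the suspension arrays and 1.08 and 0.62 on the treated arrays, with 0.21 and -0.21 in control.

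The 3 satellite cell markers, genes of the muscle stem cell, had a mean of 0.24 and 0.14 above control on the suspension arrays and of 0.22 and 0.13 on the treated arrays, with 0.05 and -0.05 in control, and none was called. Cdh15 differed from control by 0.30 in suspension and 0.34 in the treated group, and Pax7 by 0.16 and 0.22. Myf5 differed by 0.11 and -0.04. On array 2 of both suspended groups 2 of the 3 markers were above their control mean. Adipocyte markers split the control arrays, at -0.88 and 0.88 around their mean, the widest split of any marker list there.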
